A study of Mus musculus with 6 samples.

Results

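*Cidea*, *Elovl3*, *Cox7a1*, *Cox8b*, *Dio2*, *Otop1*, *Kcnk3*, *Tmem26*, *Tbx1*, and *Cited1* are genes by which brown and beige adipocytes are told from white ones. They were found by symbol in a table of 55491 genes, and each of the 10 matched 1 Ensembl identifier, was tested, and reached 10 or more counts in all 6 libraries. The tissue was inguinal white adipose tissue (IWAT), a subcutaneous depot in which beige adipocytes arise, taken from 4-week-old male mice fed regular chow. Bulk RNA was sequenced from 3 wild-type mice (*Ebf2*+/+) and 3 heterozygous knock-in mice (*Ebf2* E165X/+), all C57BL/6J. The knock-in allele carries a stop codon in *Ebf2*, which encodes a transcription factor of adipocyte precursors and of brown and beige adipocytes. It was made by genome editing of the germline, so every cell of the mouse carries it and each knock-in mouse keeps 1 normal allele. No tissue outside this depot, no cold exposure, and no other age was part of the comparison.

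Total counts ran from 106820505 to 124927686 in the wild-type libraries and from 110850284 to 135039488 in the knock-in libraries. *Ebf2* had 4603, 4357, and 4611 counts in the wild-type mice and 2635, 2863, and 2697 in the knock-in mice, so the genotypes did not overlap. The quasi-likelihood test of edgeR put the difference at −0.81 on the log2 scale (SE 0.076), with an adjusted *P* of 0.0596. Adipocyte markers were abundant throughout, and *Adipoq*, the gene of adiponectin, had between 105013 and 148648 counts per library. The libraries differed in RNA of other tissues. The 10 skeletal muscle markers, of which none was at 0 and the myosin gene *Myh4* had the most counts summed over the libraries (the actin gene *Acta1* had more in knock-in mice 1 and 3), took 0.204%, 0.844%, and 0.331% of the counts in the wild-type mice. In the knock-in mice they took 0.375%, 0.0925%, and 4.75%, so knock-in mouse 3 stood apart from the other 5. The 5 epithelial markers, of which none was at 0 throughout and the keratin gene *Krt5* had the most counts summed over the libraries (*Epcam* had more in wild-type mouse 2 and knock-in mice 2 and 3), summed to 69.5, 1.93, and 34.4 CPM in the wild-type mice and 27.7, 1.55, and 5.81 CPM in the knock-in mice. CPM divide each count by its library's total after TMM scaling, the trimmed mean normalization of edgeR. *Krt5* and *Krt14*, keratins of the skin, made up most of the high sums in wild-type mice 1 and 3 and knock-in mouse 1. *Krt8* and *Krt18*, of the same list, were instead highest in knock-in mouse 3, at 288 and 130 counts against at most 35 and 28 in the others.

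Brown adipocytes, and the beige adipocytes that appear among white ones, burn fatty acids to make heat. Their mitochondria carry the uncoupling protein UCP1, and around it stand lipid droplet proteins, respiratory chain subunits of the muscle type, an enzyme that activates thyroid hormone, and ion channels of the cell surface. EBF2 is known to bring the nuclear receptor PPARG to genes of the brown fat program. *Tmem26*, *Tbx1*, and *Cited1* are used as markers of beige cells, whereas *Cidea*, *Elovl3*, *Cox7a1*, and *Cox8b* are shared by brown and beige adipocytes.

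The 10 genes showed different patterns between the genotypes. *Cidea* fell to 10.6% of its wild-type level in the knock-in mice, and the channel genes *Otop1* and *Kcnk3* lay below every wild-type value without passing edgeR's test. *Dio2*, *Cox8b*, *Cox7a1*, and *Elovl3* had lower means with overlapping mice. The beige markers *Tmem26* and *Tbx1* had log2 fold changes of 0.19 and −0.15, and *Cited1* had the higher mean in the knock-in mice. At an adjusted *P* under 0.05 and a fold above 1.5, edgeR called 1 of the 10 genes, *Cidea*, whereas it called 0.00918% of the 32664 genes tested. DESeq2, with the same thresholds, called 3 of the 10 lower (*Cidea*, *Otop1*, and *Kcnk3*) and 0 higher, against 0.263% of all genes lower and 0.0367% higher. Before adjustment, 5 of the 10 had a *P* under 0.05 and were lower in edgeR, against 3.09% of all genes, and *Cited1* was the 1 that was higher, against 1.68% of all genes. In 3 of the 10 every knock-in mouse lay below every wild-type mouse, and in 0 every knock-in mouse lay above. Those orders were met by 5.75% and 5.09% of all genes tested, and the lower one by 6.78% of the 18905 genes that reached 10 counts in all 6 libraries. The median log2 fold change of the 10 genes was −0.85, beside 0.014 for all genes tested.

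**Figure D1:**
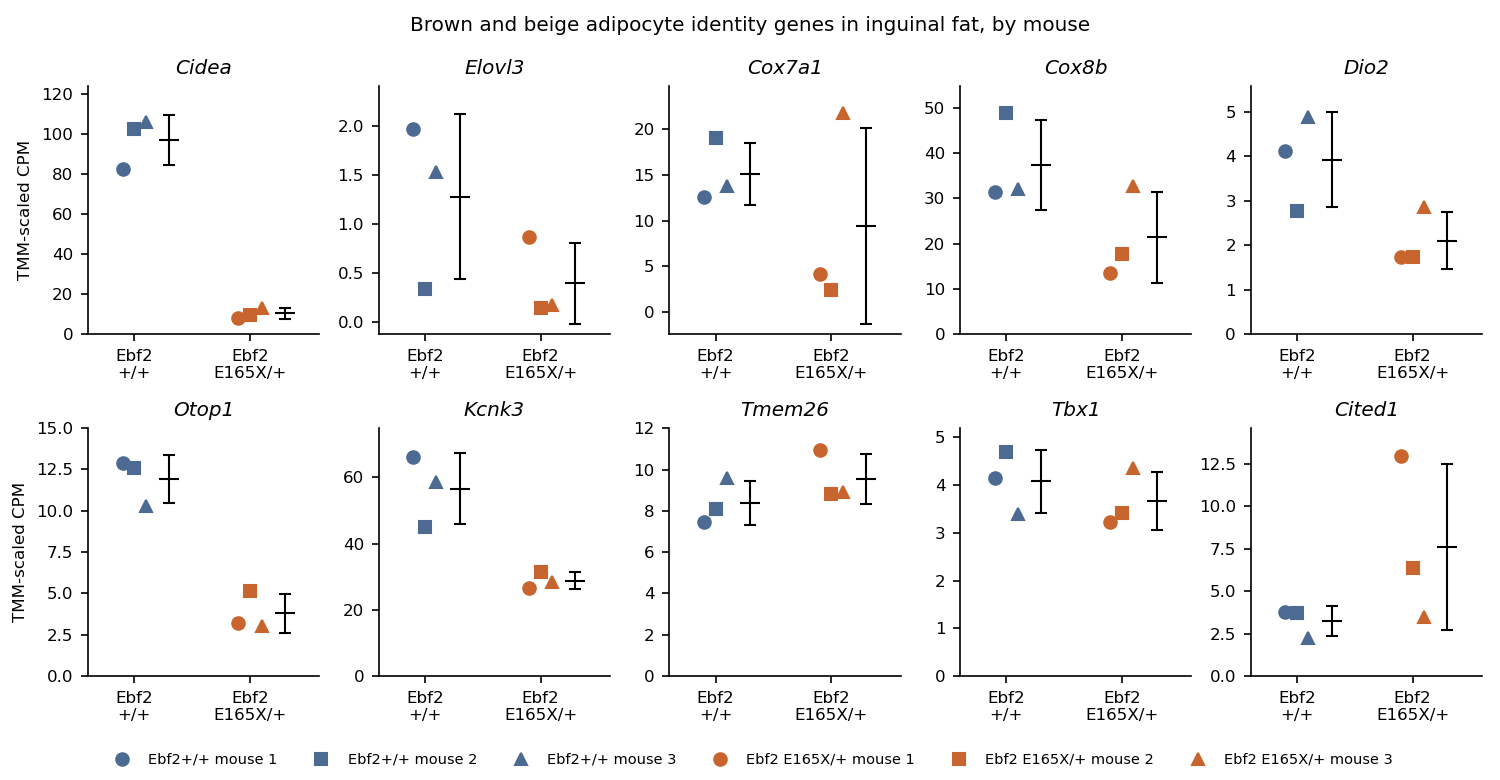
TMM-scaled CPM (vertical axes) of each of the 10 genes in the 3 *Ebf2*+/+ (blue) and 3 *Ebf2* E165X/+ (orange) mice, with the mean and SD of each genotype in black and a symbol for each mouse number. The genotypes are apart in *Cidea*, *Otop1*, and *Kcnk3*, and knock-in mouse 3 (orange triangle) lies above the other 2 knock-in mice in *Cox7a1*, *Cox8b*, and *Dio2*.

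**Figure D2:**
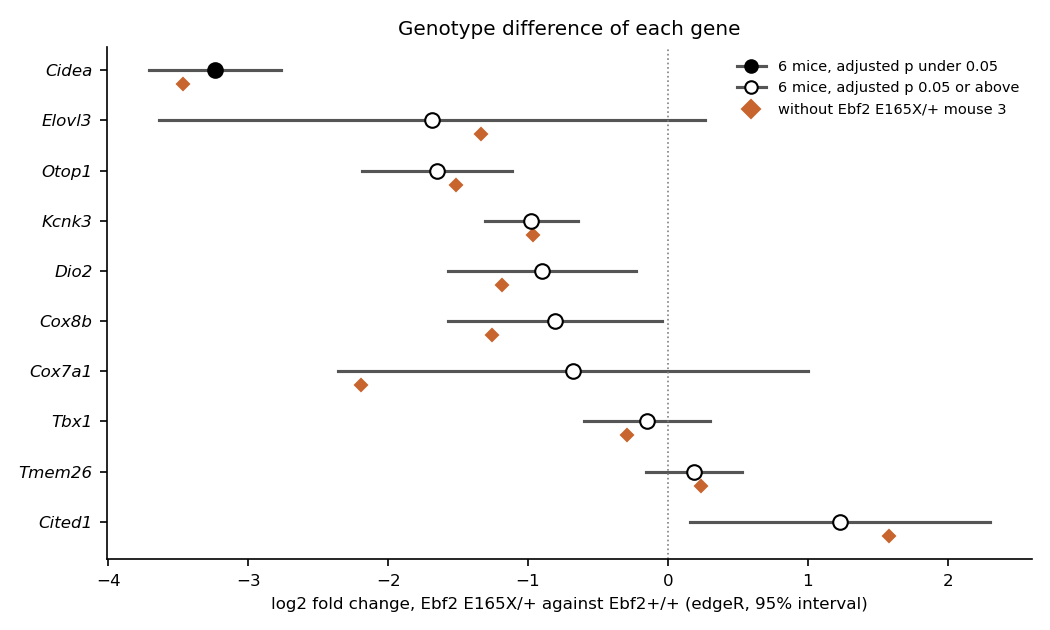
Log2 fold change of each gene in *Ebf2* E165X/+ against *Ebf2*+/+ mice from edgeR, with its 95% interval over 6 mice (circles, filled where the adjusted *P* is under 0.05) and the value without knock-in mouse 3 (orange diamonds). *Cidea* is the 1 filled circle, and *Cox7a1* moves from −0.68 to −2.19 without that mouse.

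*Cidea* encodes a lipid droplet protein that enlarges droplets and is abundant in brown and beige adipocytes. The gene (ENSMUSG00000024526) lies on the plus strand of chromosome 18, at 67343604 to 67367785 of GRCm38 in the GENCODE M21 annotation, from which the other positions below are also taken. The wild-type mice had 82.4, 102.5, and 105.8 CPM, from 9898, 10807, and 13117 counts. The knock-in mice had 7.97, 9.61, and 13.2 CPM, from 922, 1200, and 1693 counts. The highest knock-in mouse was thus far below the lowest wild-type mouse. The means were 96.9 ± 12.7 and 10.3 ± 2.69 CPM (SD, n = 3 mice each), a 9.44-fold lower level in the knock-in mice. On the log2 scale the change was −3.24 (SE 0.20, 95% interval −3.71 to −2.77), with an adjusted *P* of 0.00462 from edgeR and 8.59e-58 from DESeq2. Without wild-type mouse 2 the fold change was −3.21 and the adjusted *P* from edgeR 0.0565. In bulk tissue, fewer cells of a type and less RNA per cell cannot be told apart.

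The related gene *Cidec*, whose protein coats the droplets of white and brown adipocytes alike, gave a within-tissue reference. Its log2 fold change was −0.15 (SE 0.24), with knock-in mice on both sides of the wild-type mice. *Cidea* made up 10.6%, 12.1%, and 13.1% of the summed counts of *Cidea* and *Cidec* in the wild-type mice and 0.879%, 1.64%, and 2.83% in the knock-in mice. This share does not depend on how the libraries are scaled, and it did not overlap between the genotypes. The means were 11.9% ± 1.25 and 1.78% ± 0.984 (SD, n = 3), and the two-sided exact permutation test gave *P* = 0.1, the smallest that 3 mice against 3 allow, or 0.3 after Benjamini-Hochberg adjustment over the 3 shares tested. *Cideb*, the remaining gene of the family, had between 16 and 39 counts per library and a log2 fold change of −0.78 (SE 0.31).

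*Elovl3* encodes an elongase of very long chain fatty acids that cold induces in brown fat and that skin glands also express. The gene (chr19:46131897-46135694, plus strand) had 237, 36, and 190 counts in the wild-type mice and 101, 18, and 23 in the knock-in mice. The mice differed 5.78-fold within the wild-type group and 6.06-fold within the knock-in group, and the genotypes overlapped. On the log2 scale the difference was −1.69 (SE 0.84, 95% interval −3.64 to 0.26), with an adjusted *P* of 0.783 from edgeR. Without knock-in mouse 1 it was −2.98 and without wild-type mouse 1 −1.24. The 3 libraries with the most *Elovl3* were the 3 with the most *Krt5* and *Krt14*, but not those with the most *Krt8* and *Krt18*. In them *Krt5* had 6043, 2753, and 1964 counts, and in the other 3 it had 5, 28, and 1. *Krt14* had 12, 6, and 157 counts in those other 3 libraries and between 952 and 2044 in the first 3. With the epithelial markers as a covariate the log2 fold change of *Elovl3* was −0.99, with an adjusted *P* of 0.966 from edgeR, and the part of epithelial RNA in this difference was otherwise not tested. Among the other elongases, *Elovl4* followed the same mice (829, 46, and 442 counts against 407, 20, and 24), whereas *Elovl1*, *Elovl5*, and *Elovl7* had log2 fold changes of 0.03, −0.21, and 0.16. *Elovl6*, an elongase of fatty acid synthesis, stood at −1.23 (SE 0.46, adjusted *P* = 0.783 from edgeR), with wild-type mouse 1 at 84813 counts and the others between 17156 and 38307.

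**Figure D3:**
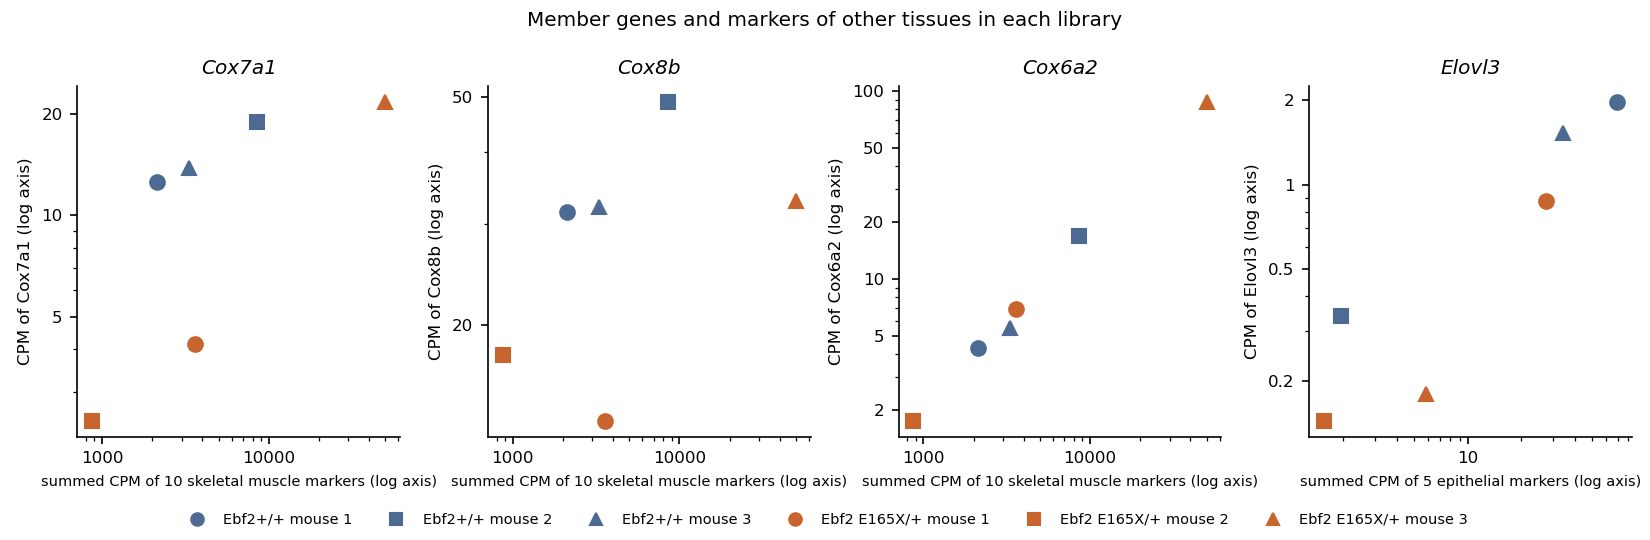
CPM of *Cox7a1*, *Cox8b*, and *Cox6a2* against the summed CPM of 10 skeletal muscle markers, and of *Elovl3* against the summed CPM of 5 epithelial markers, 1 point per mouse on log axes (blue, *Ebf2*+/+; orange, *Ebf2* E165X/+). Knock-in mouse 3 (orange triangle) is at the right of the 3 muscle panels, and the 3 mice with the most *Elovl3* are the 3 with the highest sum of epithelial markers.

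*Cox7a1* and *Cox8b* encode the forms of 2 subunits of cytochrome c oxidase, the last complex of the respiratory chain, that brown fat shares with heart and skeletal muscle. *Cox7a1* (chr7:30184144-30186078, plus strand) had 12.5, 19.0, and 13.8 CPM in the wild-type mice and 4.14, 2.46, and 21.7 CPM in the knock-in mice. Knock-in mice 1 and 2 lay below all wild-type mice, while knock-in mouse 3, the one with 4.75% muscle marker counts, lay above them all. Over all mice, edgeR gave −0.68 on the log2 scale (SE 0.72), with an adjusted *P* of 0.792. Without knock-in mouse 3 it was −2.19 (adjusted *P* = 0.0997), and with the muscle markers as a covariate it was −1.54 (adjusted *P* = 0.0336), which passed the thresholds. It was −0.32 without knock-in mouse 1, −0.22 without knock-in mouse 2, and −0.18 when the libraries were scaled to adipocyte markers. The summed muscle markers reached 8556 CPM in the other 5 libraries and 50086 CPM in that mouse, so 1 library widens the range of the covariate.

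*Cox8b* (chr7:140898945-140900446, minus strand) had 31.4, 48.9, and 32.0 CPM in the wild-type mice and 13.6, 17.7, and 32.8 CPM in the knock-in mice. Again knock-in mouse 3 was the 1 that reached the wild-type range. The log2 fold change was −0.81 (SE 0.33, 95% interval −1.57 to −0.045), with an adjusted *P* of 0.783 from edgeR. It was −1.26 without knock-in mouse 3 (adjusted *P* = 0.226) and −0.94 with the muscle covariate (adjusted *P* = 0.299), but −0.43 with scaling to adipocyte markers. *Cox6a2*, the muscle form of another subunit, had 517, 1779, and 681 counts in the wild-type mice and 797, 220, and 11207 in the knock-in mice, the same order as the muscle markers.

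The forms that most tissues use were compared with these within each library. *Cox7a1* made up 12.1%, 18.9%, and 15.6% of the counts of *Cox7a1* and *Cox7a2* in the wild-type mice and 6.25%, 4.06%, and 23.1% in the knock-in mice (two-sided exact permutation *P* = 0.5). *Cox8b* made up 13.9%, 19.4%, and 16.8% of *Cox8b* and *Cox8a* in the wild-type mice and 9.41%, 12.5%, and 24.5% in the knock-in mice (exact *P* = 0.9). Both shares were therefore lower in knock-in mice 1 and 2 and higher in knock-in mouse 3. Of 12 genes for alternative forms of complex IV subunits, *Cox7a1* and *Cox8b* among them, 11 were tested. edgeR and limma-voom called 0 of the 11. At an unadjusted *P* under 0.05 in edgeR, 7 were lower, *Cox8b* among them, beside 3.09% of all genes. DESeq2 called *Cox6a1* and *Cox8a* lower, beside 0.263% of all genes. *Cox8a* had 185 CPM in the wild-type mice and 118 in the knock-in mice, a log2 fold change of −0.64 (SE 0.13) at an adjusted *P* of 0.581 from edgeR, and its genotypes did not overlap. *Cox7a2* stood at −0.36 (SE 0.11), also without overlap, and the related *Cox7a2l* at −0.10. The median of the 11 was −0.43.

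**Figure D4:**
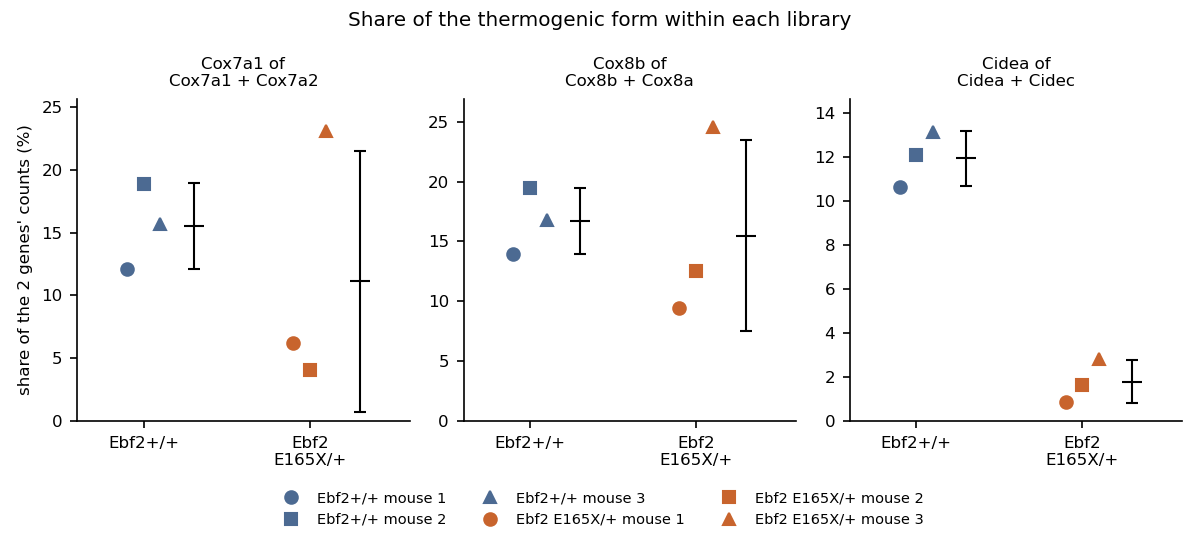
Share of *Cox7a1*, *Cox8b*, and *Cidea* in the summed counts of the pair with *Cox7a2*, *Cox8a*, and *Cidec* (vertical axes, percent) in each mouse, with mean and SD in black. The *Cidea* share is 10.6% or more in *Ebf2*+/+ mice and at most 2.83% in *Ebf2* E165X/+ mice, while knock-in mouse 3 has the highest shares of *Cox7a1* and *Cox8b*.

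*Otop1* and *Kcnk3* encode channels of the cell surface, a proton channel and a background potassium channel. *Otop1* (chr5:38275972-38304217, plus strand) had 12.9, 12.6, and 10.3 CPM in the wild-type mice and 3.18, 5.17, and 3.04 CPM in the knock-in mice. Every knock-in mouse was below every wild-type mouse, and the mean of the knock-in mice was 31.9% of that of the wild-type mice. The log2 fold change was −1.65 (SE 0.23, 95% interval −2.18 to −1.12), with an adjusted *P* of 0.229 from edgeR and 8.92e-11 from DESeq2. With the muscle markers as a covariate the adjusted *P* from edgeR was 0.0441, but it was 0.167 with limma-voom and 0.645 in edgeR with scaling to adipocyte markers, and it reached 0.784 without wild-type mouse 1. *Otop2* and *Otop3*, the other members of the channel family, had between 0 and 41 counts per library.

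*Kcnk3* (chr5:30588170-30625271, plus strand) had 66.2, 45.0, and 58.6 CPM in the wild-type mice and 26.5, 31.4, and 28.4 CPM in the knock-in mice. The genotypes did not overlap, and the knock-in mice were more alike than the wild-type mice, with means of 56.6 ± 10.7 and 28.8 ± 2.51 CPM (SD, n = 3). Its log2 fold change was −0.98 (SE 0.14, 95% interval −1.31 to −0.64), with an adjusted *P* of 0.229 from edgeR and 3.72e-07 from DESeq2. Leaving out knock-in mouse 3 left both channels near these values, at −1.51 for *Otop1* and −0.97 for *Kcnk3*. For *Kcnk3* the adjusted *P* was 0.269 with limma-voom. With scaling to adipocyte markers its log2 fold change was −0.73 (adjusted *P* = 0.674 from edgeR), and the genotypes then overlapped.

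*Dio2* encodes the deiodinase that turns thyroxine into the active thyroid hormone inside the cell. The gene (chr12:90724552-90738438, minus strand) had 4.13, 2.78, and 4.88 CPM in the wild-type mice and 1.73, 1.73, and 2.86 CPM in the knock-in mice. The groups overlapped by a narrow margin, since knock-in mouse 3 was just above wild-type mouse 2. In edgeR the log2 fold change was −0.90 (SE 0.29, 95% interval −1.58 to −0.23), with an adjusted *P* of 0.783 from edgeR and 0.0801 from DESeq2. With scaling to adipocyte markers it was −0.59. *Dio1* and *Dio3*, the deiodinases of other tissues and of hormone breakdown, had between 1 and 27 counts per library.

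*Tmem26*, *Tbx1*, and *Cited1* are markers of beige cells, and none of them was lower in all knock-in mice. *Tmem26* (chr10:68723646-68782650, plus strand), a membrane protein gene, had 7.48, 8.08, and 9.59 CPM in the wild-type mice and 10.9, 8.81, and 8.92 CPM in the knock-in mice. The groups overlapped, and the log2 fold change was 0.19 (SE 0.15, 95% interval −0.15 to 0.53), with an adjusted *P* of 0.783 from edgeR. It was 0.080 without knock-in mouse 1 and 0.43 with scaling to adipocyte markers, and without wild-type mouse 3 the knock-in mice lay above the wild-type mice, as did 9.84% of all genes tested. *Tbx1* (chr16:18580979-18590671, minus strand), a T-box transcription factor gene, had 4.15, 4.69, and 3.39 CPM against 3.23, 3.41, and 4.36 CPM. Its log2 fold change was −0.15 (SE 0.19, 95% interval −0.60 to 0.30), a sign that turned to 0.16 when the libraries were scaled to adipocyte markers. These intervals leave room for differences in either direction.

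*Cited1* (chrX:102247381-102252181, minus strand) encodes a transcriptional coactivator without a DNA-binding domain of its own. It had 3.76, 3.72, and 2.23 CPM in the wild-type mice and 13.0, 6.38, and 3.44 CPM in the knock-in mice. Knock-in mice 1 and 2 lay above all wild-type mice and knock-in mouse 3 within their range. The log2 fold change was 1.23 (SE 0.46, 95% interval 0.16 to 2.30), with an unadjusted *P* of 0.0295 and an adjusted *P* of 0.783 from edgeR. Without knock-in mouse 1 it was 0.60. Among its relatives *Cited2* stood at −0.24, and *Cited4* had 1167 counts in knock-in mouse 3 and at most 245 in the others. Of the T-box genes, *Tbx15* had 9473 counts in knock-in mouse 3 and between 3005 and 3619 in the others, and *Tbx18* stood at −0.30. Of 23 listed relatives of the 10 genes, 20 were tested, and 14 reached 10 counts in all 6 libraries. edgeR and limma-voom called 0 of the 20. At an unadjusted *P* under 0.05 in edgeR, 4 were lower, beside 3.09% of all genes. DESeq2 called *Cox8a* lower, beside 0.263% of all genes.

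Promoter sequence was looked at because EBF2 is a DNA-binding factor and *Dio2* is a gene of the cAMP response. RefSeq promoter windows of GRCm38.p6, from 250 bases before to 50 after a start, were found for 7 of the 10 genes. These genes had 10 windows, since a gene can have more than 1 start. *Cidea*, *Elovl3*, and *Kcnk3* had no window and were not searched. Both strands were searched for the EBF core CCCNNGGG, the element TCAAGGTCA of the estrogen-related receptors, and the cAMP response element TGACGTCA. Of 32851 promoters in the table, 13.7%, 0.423%, and 1.79% held them. A longer EBF palindrome, which is the core with T before and A after it, and a PPAR element, which is AGGTCA repeated after 1 base and shares those letters with TCAAGGTCA, were held by 0.904% and 0.0396% and were in none of the windows of these genes. The core was found in *Tmem26* (215 to 208 bases before the start) and in 1 of the windows of *Cited1* (141 to 134 before). The cAMP element was found in *Dio2* (95 to 88 before). The windows of *Otop1*, *Cox7a1*, *Cox8b*, and *Tbx1* held none of the motifs. The stretches with a match are shown 5′ to 3′ on the strand of the gene, at chr10:68723496-68723595 (plus), chr12:90739080-90739179 (minus), and chrX:102252269-102252368 (minus), with the matched letters in capitals. The RefSeq start of *Dio2* lies upstream of the GENCODE gene given above.
Tmem26: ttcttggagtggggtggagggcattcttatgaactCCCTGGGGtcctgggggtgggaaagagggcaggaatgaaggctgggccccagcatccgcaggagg
Dio2: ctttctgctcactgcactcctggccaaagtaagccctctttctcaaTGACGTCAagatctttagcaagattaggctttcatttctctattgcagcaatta
Cited1: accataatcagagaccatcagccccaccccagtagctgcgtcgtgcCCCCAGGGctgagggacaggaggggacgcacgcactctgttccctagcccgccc
A match describes these letters only, not binding by a factor.

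Seen by mouse, the 10 genes were not equally low in the knock-in animals. The median of their log2 CPM relative to the wild-type mean was −1.11 and −1.09 in knock-in mice 1 and 2 and −0.29 in knock-in mouse 3. In each of mice 1 and 2, 7 of the 10 genes lay below the wild-type range, beside 19.4% and 22.2% of all genes tested, and in mouse 3, 4 did, beside 22.7%. Above the range lay 2, 1, and 1 of the 10 genes in mice 1, 2, and 3, beside 24.8%, 23.8%, and 27.8% of all genes. The 4 that were below it in mouse 3 were *Cidea*, *Elovl3*, *Otop1*, and *Kcnk3*. Without mouse 3, the median log2 fold change of the 10 genes was −1.22 and 6 of them lay below every wild-type mouse, an order met by 10.7% of all genes tested in these 5 mice. The summed CPM of 7 adipocyte markers was also lowest in knock-in mouse 3, at 10373 against 14635 to 17930 in the other 5. Between the genotypes, 6 of the 7 had a log2 fold change below 0, with a median of −0.26, and edgeR called 0. In *Adipoq* and *Lipe* every knock-in mouse lay below every wild-type mouse, an order met by 5.75% of all genes tested. Scaling to the 7 markers also takes out any genotype difference that they share. It moved the median of all genes by 0.26 and that of the 10 genes to −0.51. The order between the genotypes was then without overlap in *Cidea* and *Otop1* (lower) and *Cited1* (higher) but no longer in *Kcnk3*, beside 1.3% of all genes lower and 9.78% higher. The part of adipocyte content in the differences was otherwise not tested.

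Other genes of the brown and beige program gave the setting. Of 24 further thermogenic genes, edgeR and limma-voom called 0. At an unadjusted *P* under 0.05 in edgeR, 13 were lower, beside 3.09% of all genes. DESeq2 called 9 lower and 0 higher, beside 0.263% and 0.0367% of all genes. The 9 were *Ucp1*, *Slc27a2*, *Pank1*, *Plin5*, *Acot11*, *P2rx5*, *Slc36a2*, *Slc25a20*, and *Gk*. *Ucp1*, the uncoupling protein gene, had 1303, 2245, and 4087 counts in the wild-type mice and 30, 33, and 79 in the knock-in mice, or −5.83 on the log2 scale (SE 0.55) at an adjusted *P* of 0.0596 from edgeR. *Slc27a2*, which encodes a fatty acid transporter and acyl-CoA synthetase, had 169, 605, and 743 against 23, 9, and 29 counts (−4.72, SE 0.68). Both values are further from 0 than that of any of the 10 genes. *Pank1*, of coenzyme A synthesis, stood at −1.11 (SE 0.12), and *Plin5*, which ties droplets to mitochondria, at −1.08 (SE 0.21). At the other end, *Ckmt2*, a mitochondrial creatine kinase gene of muscle and thermogenic fat, had 25508 counts in knock-in mouse 3 and between 340 and 2945 in the others. *Hspb7* and *Fabp3* were likewise highest in that mouse, and *Cpt1b*, the carnitine palmitoyltransferase of muscle and brown fat, had 944 and 615 counts in knock-in mice 1 and 2, 9176 in mouse 3, and between 3509 and 5267 in the wild-type mice. *Cpt1b* thus had the order seen in *Cox7a1*. The median of the 24 was −0.51, with 20 values below 0.

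Of 20 transcription regulators, edgeR and limma-voom called 0. At an unadjusted *P* under 0.05 in edgeR, 6 were lower, beside 3.09% of all genes. DESeq2 called *Ebf2* and *Ppara* lower, beside 0.263% of all genes. *Ppara*, the nuclear receptor of fatty acid oxidation, had 1305, 1667, and 2503 counts in the wild-type mice and 508, 814, and 783 in the knock-in mice (−1.46 on the log2 scale, SE 0.25, with edgeR's adjusted *P* at 0.377). *Prdm16*, which sets brown identity, stood at −0.32 (SE 0.10), and *Ppargc1b* and *Ppargc1a*, coactivators of mitochondrial genes, at −0.43 and −0.11. The median of the 20 was −0.25.

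Markers of single lineages had medians nearer to 0. Of 7 classical brown markers, edgeR and limma-voom called 0. At an unadjusted *P* under 0.05 in edgeR, 2 were lower, beside 3.09% of all genes. DESeq2 called *Mpzl2*, a cell adhesion gene at −1.47 in edgeR (SE 0.21), lower, beside 0.263% of all genes. *Oplah* stood at −0.49 and *Lhx8* at 0.24, and *Zic1*, a brown precursor factor, had between 8 and 38 counts in 5 libraries and 306 in knock-in mouse 3. Of 8 further beige markers and 9 white markers, edgeR, DESeq2, and limma-voom called 0, and 0 had an unadjusted *P* under 0.05 in edgeR. Among those that reached 10 counts in all libraries of 1 genotype, the values furthest from 0 were −0.25 (*Shox2*), −0.20 (*Slc27a1*), and 0.24 (*Tnfrsf9*) for the beige markers and −0.42 (*Retn*), −0.28 (*Lep*), and 0.32 (*Npr3*) for the white ones. *Tcf21*, with at most 5 counts in a library, stood at 0.68. Medians were 0.11, 0.038, and −0.18 for the classical brown, beige, and white lists. The 56 markers of 12 cell types gave the same counts of 0, and those of skeletal muscle had a median of 1.96.

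**Figure D5:**
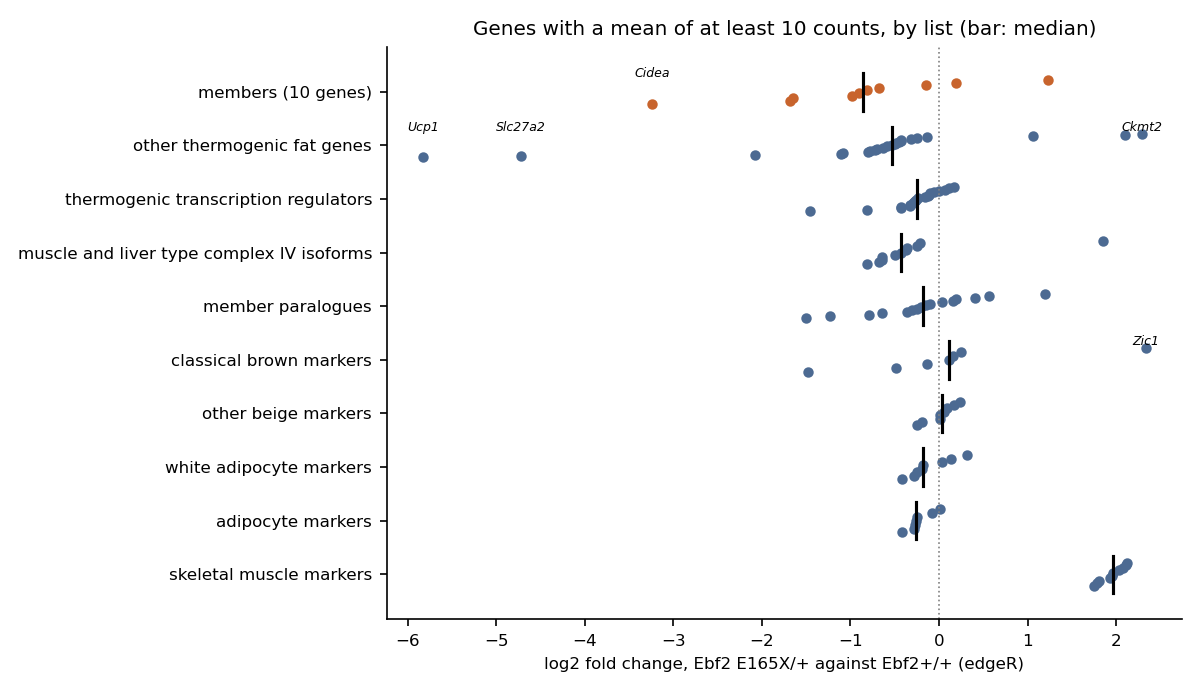
Log2 fold change (horizontal axis, *Ebf2* E165X/+ against *Ebf2*+/+, edgeR) of each gene with a mean of at least 10 counts, by list, with a bar at the median of the genes drawn. The 10 brown and beige identity genes (orange) have a median of −0.85, the further thermogenic genes drawn one of −0.53, and the beige markers one of 0.038, while *Ckmt2*, at 2.30, lies beyond the muscle markers drawn.

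The genes whose course over the 6 mice was nearest to *Cidea* and *Otop1* were sought by the root mean square difference of log2 CPM, each centred on its wild-type mean, among 15155 genes. For *Cidea* they were *Cpn2* (0.36), which encodes a carboxypeptidase subunit, *Hpcal4* (0.42), of a neuronal calcium sensor, and *Acsm3* (0.67), of a medium-chain acyl-CoA synthetase. For *Otop1* they were *Mpzl2* (0.40), *Ppara* (0.44), and *Gdf5* (0.47), a growth factor gene. *Mpzl2* and *Ppara* thus appear both here and in the lists above.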

How the data were processed

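RNA was extracted with spin columns, and the authors deposited RSEM expected counts per Ensembl gene, not normalized, for 6 libraries. The submitters' processing notes name cutadapt 4.8, FastQC 0.11.8, STAR 2.7.8a, RSEM 1.3.3, MultiQC 1.20, and GRCm38. The paper's methods describe 3′ mRNA libraries and the labels a kit of another maker, so amounts of different genes are not ranked, other than to name the marker of a list with the most counts, and the shares within gene pairs are compared between mice only. All 332946 values were whole, so that rounding changed none. Strand use in counting is not given in the sources used here.

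The genes tested had 1 or more counts in at least 1 library, and the tests were run in R 4.3.3 with edgeR 4.0.16 (TMM, quasi-likelihood test, genotype only) and Benjamini-Hochberg adjustment over all genes. The study used DESeq2, which was run as an alternative (version 1.42.0) beside limma-voom (limma 3.58.1), other scalings, filters, covariates, a replicate block, and each mouse left out. Logarithms used a prior count of 2. Scripts were tested on simulated data. Plots were drawn with matplotlib 3.10.9. Replicates are mice as labelled. The lowest total was 106820505 counts.

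The 10 genes and all lists were chosen with earlier results of these data known. Named genes were all 10, their relatives that reached 10 counts in all 6 libraries, *Ebf2*, *Ucp1*, the 3 largest log2 fold changes of each list among those that did so in all libraries of 1 genotype, and the 3 nearest profiles. The remaining named genes, among them those that DESeq2 called, the keratins, *Hspb7*, *Fabp3*, *Cpt1b*, *Tcf21*, and *Zic1*, were chosen after their values were seen, as was the epithelial covariate.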

Additional observations from a re-analysis of the deposited data

How the results depend on the processing

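The log2 fold change of *Cidea* kept its direction in all 17 alternatives, from −3.46 to −2.92, and its call in 16. Adjusted *P* values ran from 8.59e-58 with DESeq2 to 0.0565 in edgeR without wild-type mouse 2. The 1 of 10 genes called became 6 with an unadjusted *P*, 3 with DESeq2, 3 with the muscle covariate, and 0 to 1 with 1 mouse left out. Over all genes the 3 calls became 98 with DESeq2 (86 lower), 7 with scaling to adipocyte markers (4 lower), 20 with the muscle covariate (15 lower), and 1 to 11 with 1 mouse left out, the extremes being without wild-type mouse 2 and knock-in mouse 3. The median of the 10 genes was −0.51 with adipocyte scaling and −1.22 to −0.67 with 1 mouse left out, and the genes without overlap numbered 3 to 7 (3 to 6 lower), against 9.46% to 12.0% of all genes lower and 7.88% to 10.9% higher in those fits. At an adjusted *P* under 0.05, *Otop1* passed with DESeq2 and with the muscle covariate and in none of the other alternatives. Its highest adjusted *P*, in edgeR without wild-type mouse 1, was 0.784. *Tbx1* turned to 0.16 with adipocyte scaling. The genotype difference in the *Cox8b* share, −1.25 percentage points, ran from −5.77 to 1.79 with 1 mouse left out, and that in the *Cox7a1* share, −4.41 points, from −10.4 to −0.874. The cause of these shifts was not tested.

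Mouse numbers are shared between the genotypes, but same-numbered mice did not deviate together (correlations −0.16, 0.073, and −0.46), so they were not treated as pairs. Some differently numbered mice did, with 0.80 for wild-type mouse 3 and knock-in mouse 1 and 0.61 for wild-type mouse 2 and knock-in mouse 3. The lowest value was −0.77, for wild-type mouse 2 and knock-in mouse 1. With the number as a replicate block edgeR called 1 of the 10 genes, *Cidea* (−3.26, adjusted *P* = 0.0232), and 2 of all genes. In that fit *Otop1* was at an adjusted *P* of 0.705 and *Kcnk3* at 0.891.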

Other observations

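The summed erythroid markers, of which the globin gene *Hbb-bs* had the most counts, were highest in knock-in mouse 1, at 2892 CPM against 1244 to 2101 in the other 5. Of these 3 markers, edgeR, DESeq2, and limma-voom called 0 between the genotypes, and 0 had an unadjusted *P* under 0.05 in edgeR.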
